A study of Mus musculus with 12 samples.

Results

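The genes described here are those of platelet-derived growth factor (PDGF) signalling at the cell surface: the 2 receptors Pdgfra and Pdgfrb and the 4 ligands Pdgfa, Pdgfb, Pdgfc and Pdgfd. Every probe set that the platform annotation gives to one of these 6 symbols alone was taken, which made 14 of the 45037 probe sets tested. A probe set is a group of short array probes for one transcript. Pdgfra and Pdgfd had 3 probe sets each and the other genes had 2 each. RNA came from C3H10T1/2, a mouse embryonic line of fibroblast shape that can form fat, cartilage, bone and muscle cells, and was read on 12 Affymetrix arrays in 4 groups of 3. To raise miR-140, one experiment used siRNA-140, an siRNA form of it, with siRNA-96 as the control. To block it, the other used an LNA (locked nucleic acid) oligonucleotide against miR-140, here anti-miR-140, with one against miR-449, here anti-miR-449, as the control. All groups were thus transfected cells of 1 line, and each control acts on another microRNA, so a difference between groups joins the effects of both molecules. An untransfected group, a dose and a time are not given in the sources used here. Nothing says that replicates were separate cultures, so each p-value reflects only how these samples vary, which may be technical. In RNA from a whole culture, fewer cells of a type and less RNA per cell cannot be told apart.

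PDGF ligands are secreted dimers. PDGF-A and PDGF-B are processed inside the cell, while PDGF-C and PDGF-D are released with a CUB domain that an extracellular protease must remove. The alpha receptor binds PDGF-A, PDGF-B and PDGF-C, and the beta receptor binds PDGF-B and PDGF-D. Both are receptor tyrosine kinases that drive division and migration of mesenchymal cells, and in fibroblasts both are usually present. In zebrafish, miR-140 is known to restrain Pdgfra during growth of the palate, which makes Pdgfra a gene of interest for this microRNA.

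Mature microRNAs named by the treatments and controls are shown with the seed in capitals (bases 2 to 8), through which a microRNA mostly pairs with its targets. The sequences are those of RefSeq on GRCm38.p6, and the labels do not say which arm or sequence was transfected. The hairpin of miR-140, which lies in an intron of Wwp2, gives miR-140-5p and miR-140-3p. Only miR-140-3p was matched in the RefSeq sequences used here, so miR-140-5p and its seed are not shown. The seeds of miR-140-3p, miR-96-5p and the miR-449 pair are different from each other, a comparison of the printed arms alone, while miR-449a-5p and miR-449c-5p share theirs.
miR-140-3p: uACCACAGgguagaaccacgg
miR-96-5p: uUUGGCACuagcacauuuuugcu
miR-449a-5p: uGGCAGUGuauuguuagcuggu
miR-449c-5p: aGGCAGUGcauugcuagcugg

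Promoters are shown for 3 members on which the results turn: Pdgfra and Pdgfa, with the largest offsets between the experiments, and Pdgfc, with the largest siRNA difference. RefSeq windows on GRCm38.p6 were matched for 4 of the 6 genes (Pdgfra, Pdgfa, Pdgfc and Pdgfd), with 2 starts for Pdgfa, and the 250 bases before the start are given 5′ to 3′ on the strand of the gene. Capitals mark GGGCGG or its reverse complement, the GC box that Sp1 binds. The Pdgfra window lies at chr5:75152001-75152250 (plus strand), the Pdgfa window at chr5:138994945-138995194 (minus strand) and the Pdgfc window at chr3:81036166-81036415 (plus strand).
Pdgfra: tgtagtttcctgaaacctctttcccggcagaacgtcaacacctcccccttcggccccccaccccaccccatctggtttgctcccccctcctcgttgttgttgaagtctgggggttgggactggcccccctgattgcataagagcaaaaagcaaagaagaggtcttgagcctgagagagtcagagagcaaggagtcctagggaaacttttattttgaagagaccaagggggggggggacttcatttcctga
Pdgfa: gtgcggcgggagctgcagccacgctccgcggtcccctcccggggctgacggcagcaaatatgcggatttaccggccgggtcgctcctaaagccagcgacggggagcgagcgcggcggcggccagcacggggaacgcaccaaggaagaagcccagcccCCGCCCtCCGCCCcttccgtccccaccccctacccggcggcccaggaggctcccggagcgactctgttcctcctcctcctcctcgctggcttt
Pdgfc: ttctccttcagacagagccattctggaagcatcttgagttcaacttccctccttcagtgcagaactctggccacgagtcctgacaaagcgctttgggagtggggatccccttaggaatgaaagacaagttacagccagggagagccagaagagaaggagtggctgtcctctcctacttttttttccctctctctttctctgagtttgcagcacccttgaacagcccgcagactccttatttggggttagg

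The GC content was 54.4% in the Pdgfra window, 50.8% in the Pdgfc window and 72.4% in the Pdgfa window, against a median of 52.4% over 32851 windows of this length. GGGCGG was searched on both strands and lay in the Pdgfa window 2 times, beginning 93 and 86 bases before the start. The other Pdgfa window held it 1 time, and 32.7% of all windows held it. TATAAA (in 12.4% of all windows) and the STAT motif TTCNNNGAA (7.02%) were in none of these 3 windows on either strand. TATAAA lay in the Pdgfd window 1 time, 160 bases before the start.

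As a set, fibroblast markers were bright in every group. Over the 12 arrays, 9 of 10 listed genes had a mean log2 value of at least 7 (Col1a1, Vim and Fn1 among them), while Thy1 was dim. None of the 6 endothelial, 6 epithelial or 5 measured haematopoietic markers reached 7, and of 8 mural cell markers only Acta2 and Cspg4 did. The 6 siRNA arrays did not divide by their labels. Vnn1, which encodes a pantetheinase, had values of 10.37, 10.51 and 5.52 for siRNA-140 (replicates 1 to 3), against 10.04, 5.66 and 5.27 for siRNA-96. Usp18, an interferon-induced gene, ran the opposite way, at 3.85, 4.67 and 8.01 for siRNA-140 against 4.65, 8.92 and 9.30 for siRNA-96. By correlation over all probe sets, which are not independent replicates, the third siRNA-140 array was nearest to the second siRNA-96 array (r = 0.998), and the first siRNA-96 array to the first siRNA-140 array (r = 0.995). The results of that experiment are therefore given for all 6 arrays and again without 2 of them, siRNA-140 replicate 3 and the first siRNA-96 array. Arrays of the 2 experiments also differed in level: over all probe sets the median siRNA minus anti-miR difference was -0.32.

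Of the receptors, the Pdgfra probe set with the highest values (1421917_at) had values of 7.83, 7.74 and 8.21 for siRNA-140 (replicates 1, 2 and 3), against 7.35, 8.37 and 8.10 for siRNA-96. The groups overlapped fully, because the lowest and the highest value were both siRNA-96 arrays. The means were 7.93 ± 0.25 (SD, n = 3) and 7.94 ± 0.53 (n = 3), and limma gave a log2 difference of -0.01 ± 0.25 (SE; 95% interval -0.59 to 0.56). With anti-miR-140 the same probe set read 9.21, 9.29 and 9.21, and with anti-miR-449 it read 9.25, 9.34 and 9.34. These 6 arrays lay within 0.13 of each other and the groups overlapped, with a difference of -0.07 ± 0.07 (interval -0.23 to 0.09).

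The other Pdgfra probe sets were dimmer and did not repeat this pattern. Probe set 1421916_at, annotated to the same GenBank record as the bright one, had values of 5.09, 5.75 and 5.83 for siRNA-140, against 5.65, 5.63 and 5.60 for siRNA-96, and only siRNA-140 replicate 1 stood apart, on the low side (difference -0.07 ± 0.19). Probe set 1438946_at, from another record, had values of 5.43, 5.72 and 5.13 for siRNA-140, against 5.11, 5.17 and 4.90 for siRNA-96. Here siRNA-140 replicates 1 and 2 were the highest of the 6 arrays, and the difference was 0.37 ± 0.16 (interval -0.00323 to 0.74; adjusted p = 0.997 in limma). In the anti-miR arrays 1421916_at differed by 0.15 ± 0.13 and 1438946_at by 0.03 ± 0.09, with overlap in each. No direction is given for Pdgfra as a gene.

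Pdgfrb, the receptor used as a marker of pericytes, was the steadier of the receptors. Its probe set 1436970_a_at had values of 8.87, 8.91 and 8.99 for siRNA-140, against 8.65, 9.0 and 8.99 for siRNA-96, so that siRNA-96 replicate 1 was the low array again. The difference was 0.04 ± 0.13 (interval -0.25 to 0.33). In the anti-miR experiment all 6 arrays lay between 9.75 and 9.83, the narrowest range of any member there, with a difference of 0.04 ± 0.07 (interval -0.11 to 0.19). The second probe set, 1417148_at, differed by 0.02 ± 0.12 with siRNA-140. With anti-miR-140 it had the same mean in both groups, 8.16, with an interval of -0.19 to 0.19.

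Of the ligands, Pdgfa, which acts through the alpha receptor, had values of 7.46, 7.69 and 7.76 for siRNA-140, against 7.30, 7.81 and 7.85 for siRNA-96, at probe set 1418711_at. The low arrays were siRNA-96 replicate 1 and siRNA-140 replicate 1, and the groups overlapped (difference -0.02 ± 0.17, interval -0.40 to 0.37). The anti-miR arrays ran from 8.60 to 8.74, with a difference of -0.03 ± 0.07 (interval -0.20 to 0.14). The other Pdgfa probe set, 1449187_at, differed by 0.03 ± 0.16 and 0.01 ± 0.07 in the 2 experiments.

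Pdgfb, whose product binds both receptors, was of middle brightness. Probe set 1450414_at had values of 6.37, 6.51 and 6.67 for siRNA-140, against 6.01, 6.73 and 6.56 for siRNA-96, and overlapped. With anti-miR-140 it read 6.72, 6.80 and 6.75, and with anti-miR-449 it read 6.70, 6.64 and 6.64. These groups did not overlap, but the gap between them was 0.02, the difference was 0.10 ± 0.07 (interval -0.06 to 0.25) and the limma adjusted p was 0.974. The dimmer probe set 1450413_at did not share that order, at -0.07 ± 0.09, and differed by -0.27 ± 0.13 (interval -0.56 to 0.02) between siRNA-140 and siRNA-96.

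Pdgfc, a ligand of the alpha receptor that needs extracellular cleavage, had the largest difference of the 14 probe sets between siRNA-140 and siRNA-96. Probe set 1419123_a_at had values of 8.22, 8.10 and 7.64 for siRNA-140, against 7.77, 7.57 and 7.28 for siRNA-96. The groups overlapped at siRNA-140 replicate 3 and siRNA-96 replicate 1, and the means of 7.99 ± 0.31 and 7.54 ± 0.25 (SD, n = 3 each) differed by 0.45 ± 0.18 (SE; interval 0.03 to 0.87), a 1.36-fold difference with a limma adjusted p of 0.997. The second probe set, 1449351_s_at, had values of 7.90, 8.14 and 7.50 for siRNA-140, against 7.91, 7.49 and 7.56 for siRNA-96. Its suffix marks probes that may also match transcripts of other genes, and its difference was 0.19 ± 0.18 (interval -0.23 to 0.61). In the anti-miR arrays the means at 1419123_a_at were 7.83 ± 0.17 and 7.81 ± 0.12. Anti-miR-140 differed from anti-miR-449 by 0.02 ± 0.10 there and by 0.02 ± 0.07 at 1449351_s_at, with intervals that together ran from -0.22 to 0.26.

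Pdgfd, the ligand of the beta receptor that also needs cleavage, was dim at all 3 probe sets. Probe set 1456532_at ran from 4.01 to 4.68 over the 12 arrays, 1426319_at from 2.18 to 3.13 and 1446691_at from 2.33 to 2.75. At 1426319_at the anti-miR-140 arrays read 2.94, 2.91 and 3.13 and the anti-miR-449 arrays 2.82, 2.73 and 2.62, without overlap. The difference was 0.27 ± 0.09 (interval 0.07 to 0.47), and the limma adjusted p was 0.974. At most 28.6% of the probe sets on any array read lower than this one. The other Pdgfd probe sets overlapped between anti-miR-140 and anti-miR-449 (0.22 ± 0.11 and 0.05 ± 0.08), and none of the 3 differed by more than 0.06 between siRNA-140 and siRNA-96.

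**Figure D1:**
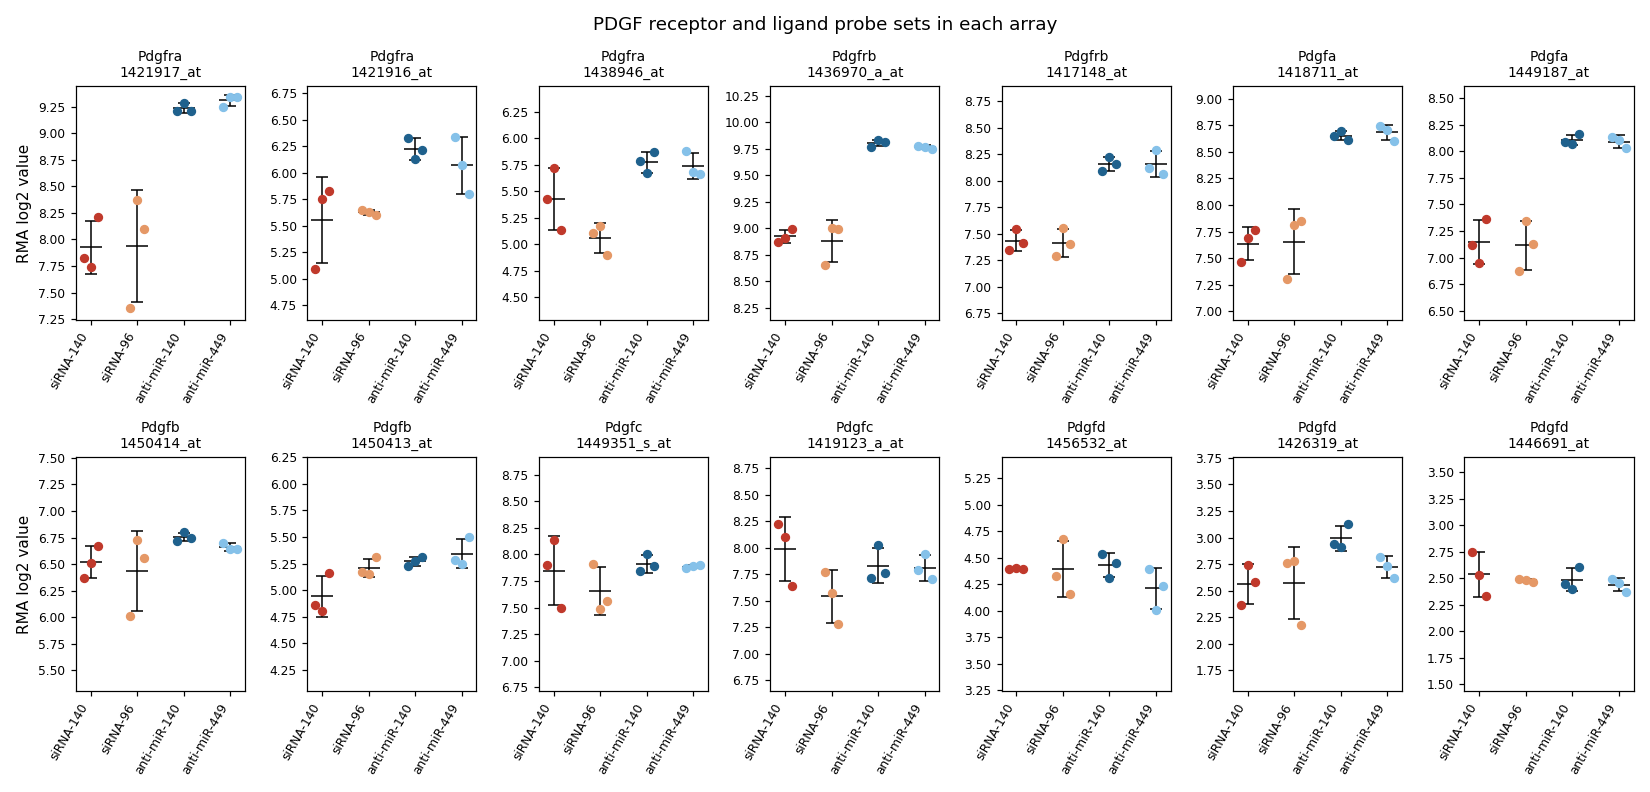
RMA log2 values (y axis, each panel spanning 2.2 log2 units but not starting at 0) of the 14 PDGF probe sets in the 4 groups (x axis). Points are arrays, replicates 1 to 3 from left to right, and the black mark and bars are the group mean ± SD (n = 3). Pdgfra (1421917_at), Pdgfrb and Pdgfa lie higher in the anti-miR arrays than in the siRNA arrays, while Pdgfc overlaps between them.

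No member passed the test in either comparison. With siRNA-140, limma called 0 of 14 PDGF probe sets, against a background of 0% (0 of 45037), with 1 of 14 and 1014 of 45037 at an unadjusted p under 0.05. With anti-miR-140 it also called 0 of 14 against a background of 0%, with 1 of 14 and 2148 of 45037 at that level. The 14 intervals for siRNA-140 ran from -0.59 to 0.87 on the log2 scale, and those for anti-miR-140 from -0.27 to 0.47. For the 7 probe sets with a mean of at least 7 the anti-miR intervals were narrower, from -0.23 to 0.26. The values of anti-miR-140 and anti-miR-449 did not overlap at 2 of the 14 probe sets (Pdgfb 1450414_at and Pdgfd 1426319_at), and 8.4% of all probe sets did the same. Between siRNA-140 and siRNA-96 this held for 0 of 14, against 6.1% of all.

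Targets of a microRNA are known to fall when it is raised and to rise when it is blocked, so the difference of the responses was also tested, in 1 model of all 12 arrays. Its limma adjusted p was 0.997 at every member probe set, with 0 of 45037 called and 1322 at an unadjusted p under 0.05 (background 0%). For Pdgfra the differences of responses were 0.06 ± 0.28, -0.22 ± 0.25 and 0.33 ± 0.19 at 1421917_at, 1421916_at and 1438946_at. For Pdgfc at 1419123_a_at the value was 0.43 ± 0.22 (interval -0.06 to 0.91).

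**Figure D2:**
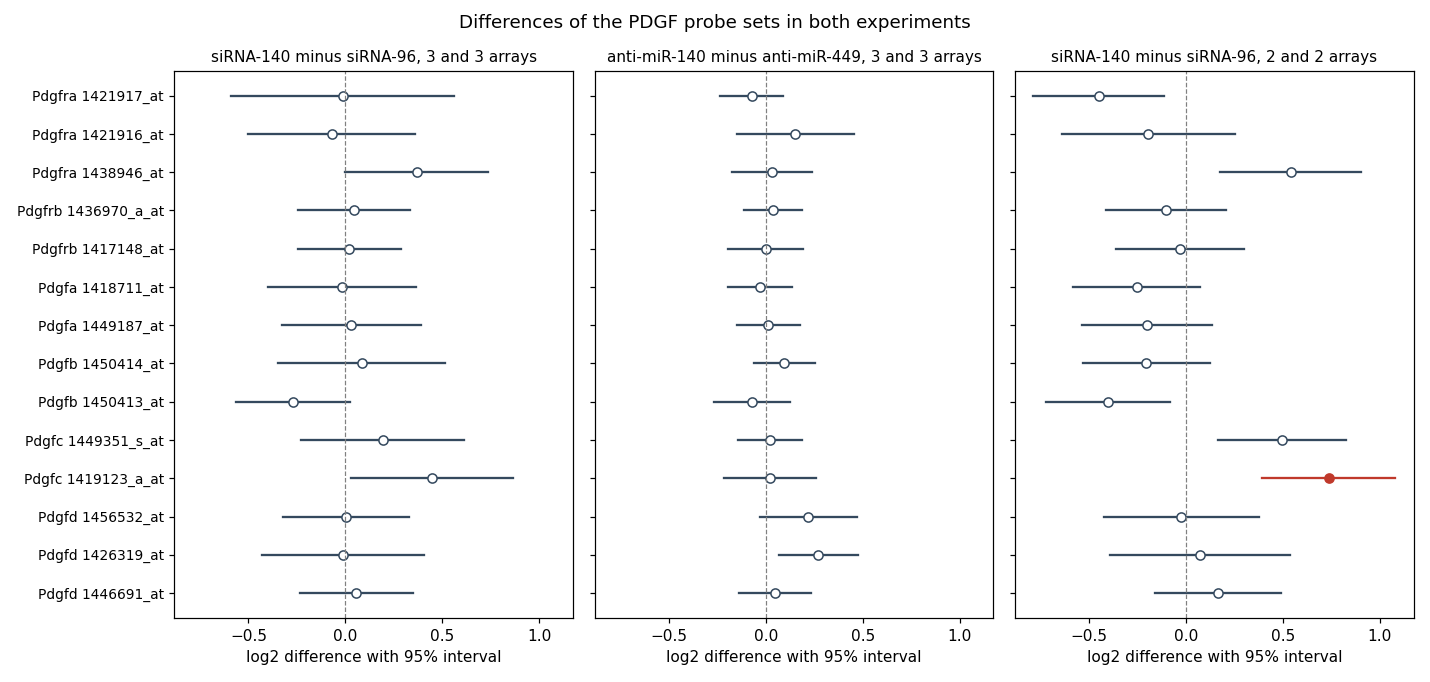
Log2 differences (x axis) with their 95% intervals for the 14 PDGF probe sets (y axis), for siRNA-140 minus siRNA-96 with all 6 arrays (left), anti-miR-140 minus anti-miR-449 with all 6 arrays (middle), and siRNA-140 minus siRNA-96 with 4 arrays (right). The filled red point is the only one with a limma adjusted p under 0.05, Pdgfc 1419123_a_at at 0.74 in the right panel.

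With the third siRNA-140 array and the first siRNA-96 array left out, Pdgfc was higher and the bright Pdgfra probe set lower in the remaining siRNA-140 arrays. These arrays were left out because of their profile, after it was known, so the p-values that follow lend no separate weight to an action of miR-140. The siRNA-140 arrays kept both had high Vnn1 and low Usp18, and the siRNA-96 arrays kept both had low Vnn1 and high Usp18. Label, Vnn1 level and the level of this interferon-induced gene therefore cannot be told apart in these fits. In a fit of the other 4 arrays Pdgfc 1419123_a_at differed by 0.74 ± 0.16 (interval 0.39 to 1.08; limma adjusted p = 0.0272), a 1.66-fold difference. Over all settings tried, this adjusted p ran from 0.00464 to 1. Pdgfc 1449351_s_at differed by 0.50 ± 0.15 and did not pass with 4 arrays (adjusted p = 0.116). In a fit of 10 arrays, which adds the anti-miR arrays to estimate the spread, its limma adjusted p was 0.0133 (0.0133 to 1 over all settings). Over the 6 arrays of each experiment, the SD within groups at this probe set was 0.06 for anti-miR and 0.28 for siRNA. A fit that pools them may understate the spread of the siRNA arrays, so calls made with 10 arrays, here and below, carry this limit.

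At Pdgfra the probe sets moved apart in this setting. The bright probe set 1421917_at differed by -0.45 ± 0.15 with 4 arrays, 1421916_at by -0.20 ± 0.20 and 1438946_at by 0.54 ± 0.16. None passed with 4 arrays (limma adjusted p = 0.168, 0.768 and 0.118), while with 10 arrays the first was called lower (adjusted p = 0.0246) and the last higher (adjusted p = 0.0261). Over all settings tried, these 2 ran from 0.0246 to 1 and from 0.0261 to 1. Pdgfb 1450413_at differed by -0.40 ± 0.14 and was called with 10 arrays alone (limma adjusted p = 0.0475; 0.0475 to 1 over all settings). Neither Pdgfrb, Pdgfa nor Pdgfd had a call in either fit. Their brightest probe sets differed by -0.11 ± 0.14 for Pdgfrb, -0.26 ± 0.15 for Pdgfa and -0.03 ± 0.18 for Pdgfd with 4 arrays. In all, 1 of 14 member probe sets was called with 4 arrays, against a background of 3.87% (1.85% lower and 2.02% higher), and 5 of 14 with 10 arrays, against 8.98% (3.85% lower and 5.13% higher).

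The array values show which arrays carried this. The 3 arrays with high Vnn1 (siRNA-140 replicates 1 and 2 and siRNA-96 replicate 1) read 7.77 to 8.22 at Pdgfc 1419123_a_at and 7.90 to 8.14 at 1449351_s_at. The other 3 siRNA arrays read 7.28 to 7.64 and 7.49 to 7.56, so neither probe set overlapped between these sets of arrays. The bright Pdgfra probe set ran the other way, at 7.35 to 7.83 in the arrays with high Vnn1 and 8.10 to 8.37 in the others. Pdgfa 1418711_at read 7.30 to 7.69 against 7.76 to 7.85. Pdgfa 1449187_at did not overlap either, at 6.87 to 7.12 against 7.13 to 7.36, but by a gap of 0.01 only. Pdgfrb 1436970_a_at (8.65 to 8.91 against 8.99 to 9.0) and Pdgfb 1450414_at (6.01 to 6.51 against 6.56 to 6.73) were lower in the arrays with high Vnn1 as well, and the dim Pdgfd 1446691_at was higher by a gap of 0.01 (2.49 to 2.75 against 2.33 to 2.48). The other 6 member probe sets overlapped, among them both dimmer Pdgfra probe sets (5.09 to 5.75 against 5.60 to 5.83 at 1421916_at, and 5.11 to 5.72 against 4.90 to 5.17 at 1438946_at). In all, 8 of the 14 did not overlap, 3 higher and 5 lower, where 24.5% of all probe sets did the same (6472 higher and 4583 lower of 45037). The 14 probe sets belong to only 6 genes and are not independent. They were also brighter than the background: 7 of the 14 had a mean of at least 7, against 10256 of 45037. Each set holds arrays of both siRNA groups, was seen in the data and is not a group of the study, so no test is given. The mean of the 8 mural markers lay at 5.54 to 5.62 in the arrays with high Vnn1 and at 5.73 to 5.83 in the others, and that of the 10 fibroblast markers at 10.8 to 10.9 against 11.1. Their part in the result was not tested.

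**Figure D3:**
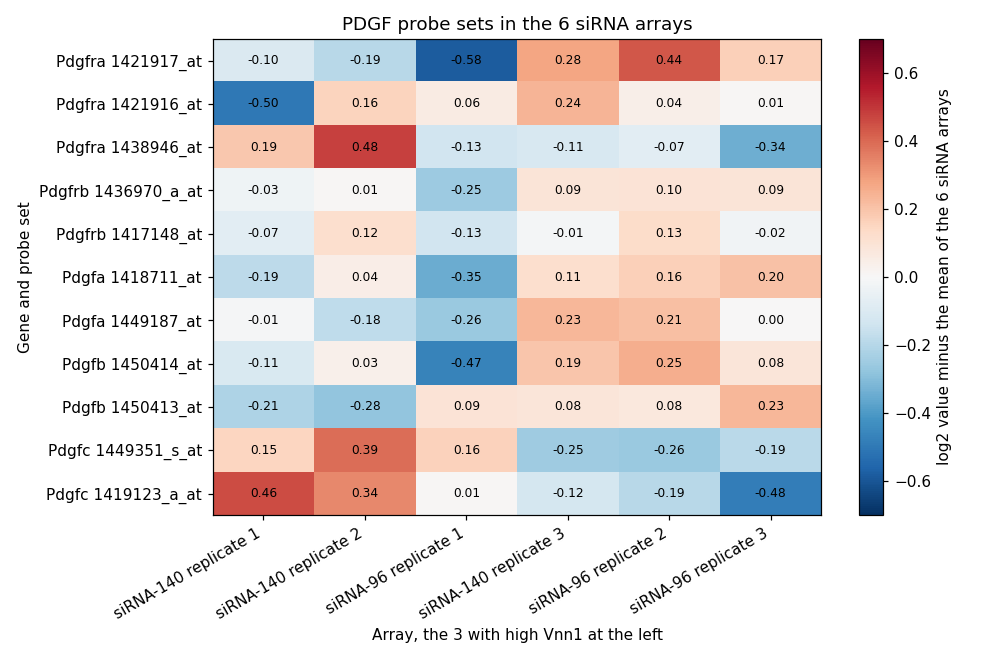
Values of the 11 probe sets of Pdgfra, Pdgfrb, Pdgfa, Pdgfb and Pdgfc (rows) in the 6 siRNA arrays (columns), as the log2 value minus the mean of these 6 arrays (colour and printed number). The 3 arrays at the left have high Vnn1: both Pdgfc rows are above their mean there and below it in the 3 arrays at the right, and the top Pdgfra row is the reverse.

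The largest differences at these genes were between the experiments. The bright Pdgfra probe set ran from 7.35 to 8.37 in the 6 siRNA arrays and from 9.21 to 9.34 in the 6 anti-miR arrays, a siRNA minus anti-miR difference of -1.34 between the means, or 2.53-fold. Pdgfa was 2.03-fold and 1.96-fold higher in the anti-miR arrays at its probe sets (differences of -1.02 and -0.97), and Pdgfrb 1.84-fold and 1.66-fold (-0.88 and -0.73). None of these 5 probe sets overlapped between experiments. The order of the groups for each of them was therefore both anti-miR groups above both siRNA groups, and neighbours within an experiment did not differ beyond their spread.

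The cause of this offset cannot be told apart from the experiment, since treatment type, controls and possibly normalization changed together, and no test is given. The size can be set against other probe sets. Among the 10256 probe sets with a mean of at least 7, the median difference was -0.31 and 10% of them lay below -0.60. The bright Pdgfra value lay at percentile 0.117 of these, the Pdgfa values at 0.585 and 0.819, and the Pdgfrb values at 1.37 and 4.10. The dimmer Pdgfra probe sets were offset less, by -0.56 at 1421916_at and -0.51 at 1438946_at (percentiles 13 and 17 of the same set), and both overlapped between experiments. Both have means below 7, so these percentiles set them against brighter probe sets. Over all probe sets 10% lay below -0.665. By contrast Pdgfc differed by -0.15 and -0.06 (percentiles 83.4 and 93.1) and Pdgfb by -0.23 at each probe set. All siRNA arrays lay below all anti-miR arrays at 5 of the 14 member probe sets, against 40.1% of all probe sets, and at 5 of the 7 brighter ones, against 48.1% of such probe sets. The first of these shares is near the background. Spread differed too: the pooled SD within groups was wider in the siRNA experiment at 14 of 14 member probe sets. At the bright Pdgfra probe set, for example, it was 0.41 against 0.05. The same count over all probe sets was not made, so this is not read as a trait of the PDGF genes.

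**Figure D4:**
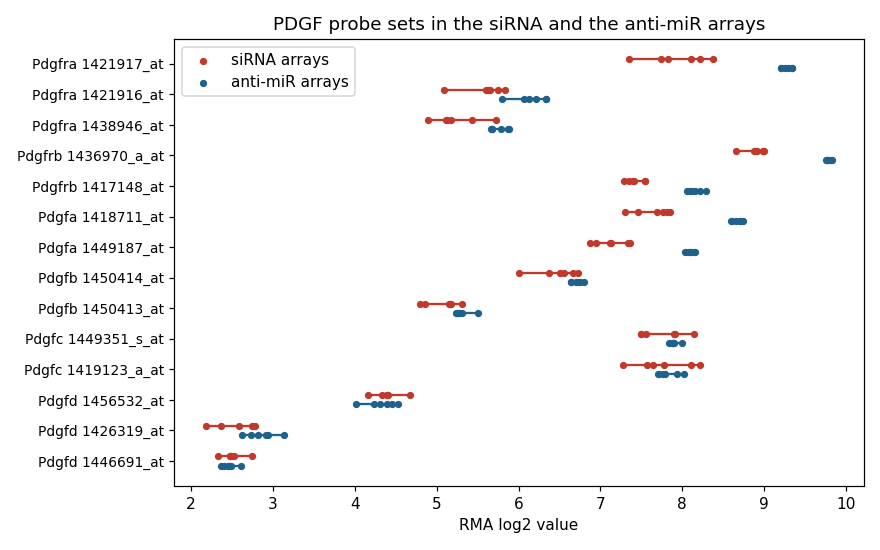
RMA log2 values (x axis) of the 14 PDGF probe sets (y axis) in the 6 siRNA arrays (red) and the 6 anti-miR arrays (blue). Points are arrays and lines span their range: the bright Pdgfra probe set, both Pdgfrb and both Pdgfa probe sets do not overlap between experiments, while the other 2 Pdgfra probe sets and those of Pdgfb, Pdgfc and Pdgfd do.

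Genes with the most similar pattern were sought for the 4 members with a brightest probe set at a mean of at least 7, by the root mean square difference over the 12 arrays after the mean of each experiment was taken off. For Pdgfra the nearest of 6321 genes were Tnrc18 (0.05), Nacc2 (0.06) and Zfp521 (0.06), against a median distance of 0.26. For Pdgfa they were 2700081O15Rik, S1pr2 and Timm8a1 (0.04 to 0.05), for Pdgfrb Knop1, Dnaja2 and Carnmt1 (0.03) and for Pdgfc Dap, Hbs1l and Gnai3 (0.04). The median distance was 0.17 for Pdgfa, 0.13 for Pdgfrb and 0.18 for Pdgfc, so distances are not to be compared between members. These arrays share the division of the siRNA experiment, and the distances are given as a description only.

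Other genes of PDGF signalling were read from 5 lists with 98 measured genes of 108, each by its brightest probe set. In neither comparison with all arrays did any of the 98 pass, against a background of 0%. Their median difference was 0.08 with siRNA-140 (0.03 over all 18193 genes) and 0.02 with anti-miR-140 (0.00 over all genes). By list, the anti-miR medians were 0.10 for the PDGF-induced transcripts (0.06 to 0.14 with single arrays left out) and between -0.05 and 0.02 for the other 4 lists. With siRNA-140 they ran from -0.03 for the induced transcripts to 0.13 for the related families. Among the genes with the smallest p of their list with siRNA-140, none past the test, were Spry2, an inhibitor of receptor tyrosine kinase signals (-0.51 ± 0.17), the CSF1 receptor gene Csf1r (-0.43 ± 0.16), the VEGF receptor gene Flt1 (0.30 ± 0.13) and Furin, which cleaves PDGF-A and PDGF-B (0.26 ± 0.13). With anti-miR-140 they included Ccl7, a chemokine gene induced by PDGF (0.27 ± 0.09), and Pik3r1, a PI3-kinase subunit (0.20 ± 0.11). They also included Kitl, the KIT ligand (0.14 ± 0.09), and St14, which encodes matriptase, a protease that cleaves PDGF-D (-0.23 ± 0.11). Ccl7, St14 and Csf1r were dim, with means of 4.43, 4.36 and 5.21 over the 12 arrays.

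In the fit of 4 siRNA arrays, 6 of the 98 fell and 9 rose in siRNA-140, or 15.3%, against a background of 4.83% of 18193 genes (2.39% lower and 2.45% higher). With 10 arrays 11 fell and 18 rose, against 11.1% of all genes (4.85% lower and 6.27% higher). Both fits set siRNA arrays with high Vnn1 and low Usp18 against siRNA arrays with low Vnn1 and high Usp18. The list genes were brighter as a set: 91 of the 98 lay at or above the median probe set level of the siRNA arrays, against 11342 of 18193 genes. A background of like brightness was not computed, so the higher shares are not read as a trait of PDGF genes. Among ligand processing genes and partners 2 of 16 fell and 2 rose. Plat, which encodes tissue plasminogen activator, the protease that activates PDGF-C, had values of 5.95 and 5.85 for siRNA-140 (replicates 1 and 2), against 7.01 and 6.90 for siRNA-96 (replicates 2 and 3), a difference of -1.06 ± 0.14 (limma adjusted p = 0.0027). The left-out arrays read 6.97 (siRNA-140 replicate 3) and 5.79 (siRNA-96 replicate 1), so Plat was low in the same 3 arrays in which Pdgfc was high. Of all probe sets, 24.5% also did not overlap between the siRNA arrays with high Vnn1 and the others. A link between Plat and Pdgfc was not tested. The co-receptor gene Nrp1 fell by 1.02 on the log2 scale, while Plaur, the urokinase receptor gene, rose by 0.69 and Lrp1, a co-receptor of the beta receptor, by 0.60.

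Of 31 receptor-proximal signalling genes 4 rose and 1 fell in that fit. The adaptor genes Shc1 (1.07 ± 0.14) and Grb2 (0.66 ± 0.14) rose with Nras (0.93 ± 0.15) and the kinase gene Map2k1 (0.83 ± 0.15), and Pik3r3, a PI3-kinase subunit, fell by 1.17. Of 19 genes of receptor down-regulation 3 rose and 0 fell: Sh3kbp1, an adaptor of receptor endocytosis (0.78 ± 0.15), Slc9a3r1, a scaffold that binds PDGF receptors (0.77 ± 0.15), and the phosphatase gene Dusp1 (0.68 ± 0.15). Of 19 transcripts known as PDGF-induced 3 fell and 0 rose: Ccn1 (-0.82 ± 0.14), Egr2 (-0.72 ± 0.14) and Ccn2 (-0.62 ± 0.14). For Ccn1 this holds at its brightest probe set, and 2 dimmer Ccn1 probe sets read slightly higher, not lower, in the same arrays. Egr2 was dim, with a mean of 4.97 over the 12 arrays. None of the 13 related VEGF, KIT and CSF1 family genes passed with 4 arrays, and 2 fell and 1 rose with 10. The medians of the lists ran from -0.09 (induced transcripts) to 0.18 (related families), against 0.04 over all genes.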

How the data were processed

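Per the labels' protocols, total RNA was purified with RNeasy and marked with biotin. The deposited values are on the log2 scale and rounded to 2 decimals, and RMA is the tool in the submitters' processing notes. This method takes off background, equalises the arrays and joins probes into probe sets, so it can shrink broad shifts between arrays. Its version, and whether it ran on both experiments at once, are not given in the sources used here. Arrays give no read depth, so their number limits the precision. Of 45101 probe sets, 64 array controls were left out. Symbols came from the platform annotation (34945 probe sets with 1 symbol, 932 with several, 9160 with none). Of those with 1 symbol, 34741 matched a RefSeq gene ID and 0 symbols changed.

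Each experiment was fitted on its own 6 arrays with limma 3.58.1 in R 4.3.3 (lmFit, eBayes), since their spread and quartiles differ, and the difference of responses on all 12. Calls used a Benjamini-Hochberg adjusted p under 0.05 over 45037 probe sets, and intervals are 95%. Each list gene was read at its brightest probe set, by the mean of the 12 arrays. The named list genes are up to 4 each way past the threshold or else the 1 with the smallest p; not all are printed. The members and lists were chosen with earlier results of these data known. The set of arrays with high Vnn1, the comparison of experiments and the promoter motifs are descriptions chosen after values were seen. The fit was tested on simulated data.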

Additional observations from a re-analysis of the deposited data

How the results depend on the processing

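With siRNA-140 against siRNA-96, leaving out siRNA-140 replicate 3 and siRNA-96 replicate 1 raised the number of probe sets called from 0 to 1743 (4 arrays) or 4043 (10 arrays). Member probe sets called rose from 0 to 1 or 5, and other pathway genes from 0 to 15 or 29. Every other setting, leaving out single arrays included, called 0 in both comparisons by limma: all 12 arrays in 1 fit, the replicate block, median centring, further quantile normalization, probe sets at or above the median, and an intensity trend with robust variances.

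The signs of small member differences depended on the setting. Under further quantile normalization of the siRNA arrays, Pdgfrb read -0.0136 (1436970_a_at) and -0.0389 (1417148_at), Pdgfa 1449187_at -0.0289 and Pdgfd 1456532_at -0.00361, each against a positive main value. Median centring turned Pdgfd 1456532_at to -0.00333. Without the 2 arrays, in both fits, Pdgfrb read -0.105 and -0.03, Pdgfa 1449187_at -0.2, Pdgfb 1450414_at -0.205, and Pdgfd -0.025 (1456532_at) and 0.07 (1426319_at). Averaging the probe sets of each gene gave 0.0944 for Pdgfra, 0.00667 for Pdgfa and -0.0933 for Pdgfb with siRNA-140, and 0.0378 for Pdgfra with anti-miR-140, each opposite in sign to the brightest probe set.

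Leaving out single siRNA arrays, the differences ranged for Pdgfra from -0.308 to 0.202 (1421917_at) and -0.207 to 0.163 (1421916_at), for Pdgfrb from -0.0717 to 0.103 and -0.0417 to 0.0883, for Pdgfa from -0.193 to 0.0817 and -0.0917 to 0.143, for Pdgfb 1450414_at from -0.128 to 0.232, and for Pdgfd from -0.112 to 0.148, -0.21 to 0.09 and -0.05 to 0.16. Pdgfb 1450413_at stayed negative, from -0.38 to -0.2. Pdgfc stayed positive, from 0.317 to 0.62 at 1419123_a_at and from 0.0467 to 0.367 at 1449351_s_at. So did Pdgfra 1438946_at, from 0.22 to 0.515. Leaving out single anti-miR arrays, they ranged for Pdgfra from -0.015 to 0.103 (1438946_at) and 0.0183 to 0.288 (1421916_at), for Pdgfa 1449187_at from -0.0183 to 0.0367, for Pdgfb 1450413_at from -0.12 to 0.005, for Pdgfc from -0.0217 to 0.0583 and -0.075 to 0.085, and for Pdgfd 1446691_at from -0.015 to 0.09. Pdgfrb 1417148_at has a main anti-miR difference of 0, hence no direction to turn, and ranged from -0.0483 to 0.0667. Of the anti-miR ranges given, that of Pdgfra 1421916_at held no turn of sign. The cause of the turns at the other probe sets was not tested.

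Replicate numbers are shared between groups. Deviations of same-numbered arrays correlated at 0.568, -0.400 and 0.624 in the siRNA experiment and 0.0197, 0.204 and -0.137 in the anti-miR experiment. In the siRNA experiment, same-numbered arrays shared the Vnn1 level at replicates 1 and 3 and had opposite levels at replicate 2. These correlations therefore cannot show whether same-numbered arrays were prepared together, and the main fits leave the arrays unpaired. With the replicate block limma called 0 and had 1621 and 2130 probe sets at an unadjusted p under 0.05; Pdgfc 1419123_a_at differed by 0.45 ± 0.11 in the block fit (adjusted p = 0.990). With 3 arrays a group, the widest member interval with siRNA-140, that of the bright Pdgfra probe set, still held differences of -0.59 to 0.56.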

Other observations

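2 other genes with PDGF in their name were read after their values were seen. Pdgfrl encodes a secreted protein that resembles the ligand-binding part of the PDGF receptors. It had values of 7.83, 7.67 and 8.39 for siRNA-140 (replicates 1, 2 and 3), against 7.79, 8.51 and 8.47 for siRNA-96. The low arrays were the 3 with high Vnn1, as at the bright Pdgfra probe set. Of all probe sets, 24.5% did not overlap between these sets of arrays, so this order is not particular to the 2 genes. With all 6 arrays the difference was -0.29 ± 0.24 (95% interval -0.84 to 0.26; limma adjusted p = 0.997), and with the third siRNA-140 array and the first siRNA-96 array left out it was -0.74 ± 0.14 (adjusted p = 0.018 with 4 arrays). The fit of 4 arrays, also used for Pdap1 below, set siRNA arrays with high Vnn1 against siRNA arrays with low Vnn1. In the anti-miR arrays Pdgfrl differed by 0.00 ± 0.07 (interval -0.15 to 0.16). Its values in the anti-miR arrays, 8.13 to 8.22, lay within the range of its siRNA arrays, which was not so for the bright Pdgfra probe set.

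Pdap1, which encodes a protein that binds PDGF-A, had probe sets that disagreed. In the 4 siRNA arrays 1434020_at differed by 0.70 ± 0.17 (limma adjusted p = 0.0472) and the brighter 1434019_at by 0.19 ± 0.14 (adjusted p = 0.639). With all 6 siRNA arrays 1434020_at was not called, at 0.16 ± 0.29 (limma adjusted p = 0.997), and leaving out single arrays moved its difference from -0.06 to 0.44.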
